A study of Mus musculus with 18 samples.

Results

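A set of 9 genes of chromatin and transcription control, all inside the duplicated segment of the Dp16 mouse, was examined in brain cortex: Hmgn1, Brwd1, Chaf1b, Morc3, Setd4, Hlcs, N6amt1, Zbtb21 and Nrip1. They were taken by gene symbol, as chromatin-related genes within the segment. They are 9 of the 55385 genes in the count table and 9 of its 384 genes within the segment. All 9 passed the filter on low counts, which left 18717 genes for testing, 115 of them in the segment.

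RNA was sequenced from 18 cortex samples, 6 in each of 3 genotypes, of which 3 are labelled male and 3 female. Dp16 mice, a model of trisomy 21, carry a duplication of a segment of mouse chromosome 16, so that its genes are present in 3 copies in place of 2, and were 17.1 to 18 weeks old. Dp16_2xIFNRs mice carry the same duplication with the interferon receptor genes brought back to 2 copies, and were 17.7 to 18 weeks old. WT mice were C57BL/6J with 2 copies throughout and were 17.1 to 18 weeks old; the labels name no treatment. All 9 genes are therefore at 3 copies in both duplication genotypes, and both are compared with the same WT libraries. The duplication covers the whole segment, so an effect of 1 of its genes cannot be told apart from effects of the others.

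Chromatin packs DNA around histone proteins, and what a gene yields depends on how that packing is loosened, marked and rebuilt. Some of the 9 gene products act on the nucleosome itself, by binding it, reading its marks or depositing its histones. Others are methyltransferases or attach biotin to enzymes, and the last group represses transcription from specific promoters or through nuclear receptors. Neurons in adult cortex no longer divide, so chromatin factors tied to DNA replication are usually scarce there.

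All members lie on chromosome 16 (GRCm38, positions from GENCODE M21), in a segment taken from 75540514 to 97962622. Nrip1 is nearest its start, at 76287400 to 76373827 on the minus strand, and Zbtb21 closes it, at 97943357 to 97962622 on the minus strand. N6amt1 spans 87354185 to 87368742 on the plus strand. Setd4 (93583457 to 93604063, minus), Morc3 (93832121 to 93876073, plus), Chaf1b (93883901 to 93906115, plus) and Hlcs (94128882 to 94313571, minus) follow each other closely. Brwd1 (95992092 to 96082526, minus) and Hmgn1 (96120618 to 96127729, minus) are neighbours. In the annotation Hmgn1, N6amt1 and Nrip1 overlap no other gene. Morc3 overlaps the antisense gene Gm30881, Setd4 the antisense gene AC160993.1, and Brwd1 Gm27833 and the opposite-strand Gm15342. Hlcs overlaps 5 entries, which include a miRNA, processed pseudogenes and an antisense gene, with Gm48984 on the opposite strand. Chaf1b overlaps Gm49617, and Zbtb21 the same-strand gene C2cd2. The strand setting of the authors' counting is not given in the sources used here, so values of these 6 genes could include or lack reads shared with the overlapping gene.

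The members do not share 1 kind of promoter sequence. Below are the 250 bases upstream of the start of 4 members, from RefSeq on GRCm38.p6 and read 5′ to 3′ in the direction of transcription, with every GC box in capitals. A GC box, the binding motif of Sp-family factors, was searched as GGGCGG on both strands. Hmgn1 and Chaf1b show the dense GC-box pattern, Zbtb21 a GC-rich window with its boxes in 1 cluster, and N6amt1 a window with none.
Hmgn1, chr16:96127726-96127975, minus strand: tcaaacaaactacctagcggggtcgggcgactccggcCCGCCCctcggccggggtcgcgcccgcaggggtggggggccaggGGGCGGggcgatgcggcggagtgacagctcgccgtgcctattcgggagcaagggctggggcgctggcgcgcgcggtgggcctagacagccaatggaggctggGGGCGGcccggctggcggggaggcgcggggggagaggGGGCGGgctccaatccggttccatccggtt
Chaf1b, chr16:93883651-93883900, plus strand: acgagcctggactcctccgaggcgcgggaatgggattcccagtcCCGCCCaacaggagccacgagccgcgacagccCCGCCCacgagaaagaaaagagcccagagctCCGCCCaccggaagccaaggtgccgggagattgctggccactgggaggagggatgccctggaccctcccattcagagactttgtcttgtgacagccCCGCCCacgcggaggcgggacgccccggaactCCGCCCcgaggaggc
Zbtb21, chr16:97962623-97962872, minus strand: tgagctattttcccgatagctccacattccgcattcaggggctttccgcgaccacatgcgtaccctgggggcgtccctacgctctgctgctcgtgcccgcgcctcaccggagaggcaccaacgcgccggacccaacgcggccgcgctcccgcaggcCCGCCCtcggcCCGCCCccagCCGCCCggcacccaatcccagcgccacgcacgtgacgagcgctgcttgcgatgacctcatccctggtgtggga
N6amt1, chr16:87353935-87354184, plus strand: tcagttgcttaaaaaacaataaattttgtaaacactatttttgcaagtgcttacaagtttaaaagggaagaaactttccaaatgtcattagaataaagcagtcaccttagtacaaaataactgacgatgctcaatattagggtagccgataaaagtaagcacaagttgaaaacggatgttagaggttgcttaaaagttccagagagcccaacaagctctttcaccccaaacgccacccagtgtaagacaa
GC content was 76% in the Hmgn1 window, 68.4% in the Chaf1b window, 70% in the Zbtb21 window and 36.4% in the N6amt1 window, against a median of 52.4% over 32851 promoter windows of the same length. The 9 genes have 11 windows in the table, since Hlcs and Nrip1 have an alternative start each, and 8 of the 11 held a GC box, as did 32.7% of all windows. CCAAT stood in 5 of the 11 and in 33.8% of all, and the ETS motif CCGGAA in 3 of the 11 and in 12% of all. A CRE (TGACGTCA) and a TATA box (TATAAA) were in none of the 11 windows, each searched on both strands. Of all windows, 1.55% held the CRE and 12.4% the TATA box, so their absence from 11 windows says little. None of these motifs contains another, and a match is a description of the letters only. The 4 genes printed had fold changes of 1.36 to 1.51 in Dp16 against WT, with N6amt1, without a GC box, at 1.51 and Hmgn1, with 4, at 1.5.

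Total counts per library were between 46346019 and 67281449 in Dp16, 47912340 and 61150849 in Dp16_2xIFNRs, and 47554526 and 52006799 in WT. The genotype labels were checked on the receptor genes Ifnar1, Ifnar2, Ifngr2 and Il10rb. They were called lower in Dp16_2xIFNRs than in Dp16, at 0.671 to 0.708 of the Dp16 level, and lay at 0.966 to 1.05 of the WT level. Summed markers of excitatory cortical neurons were 1296 to 1499 RPKM in Dp16, 1282 to 1508 RPKM in Dp16_2xIFNRs and 1305 to 1574 RPKM in WT, and 0 of the markers of 10 cell type lists were called in either comparison with WT (edgeR). The summed striatal markers varied from 38.6 to 164 RPKM across the 18 libraries, in every genotype. Choroid plexus markers reached 304 RPKM in Dp16 replicate 3 and 154 RPKM in WT replicate 5, and lay near 10.1 RPKM in Dp16, 5.81 in Dp16_2xIFNRs and 10.5 in WT at the median. Without those 2 libraries, a choice made after seeing the data, the same number of members was called, 7 in each comparison with WT.

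The members span a wide range of levels. By RPKM, which corrects for length, the mean over all 18 libraries was 26.8 for Hmgn1, 8.35 for Nrip1, 7.85 for Brwd1, 5.79 for Morc3, 4.68 for Zbtb21, 3.51 for N6amt1, 3.32 for Hlcs and 3.07 for Setd4. Chaf1b was far below, at 0.303 RPKM, in the 14.4th percentile of the tested genes, whereas Hmgn1 was in the 87.5th. Within WT, Nrip1 (6.54 ± 0.760 RPKM) and Brwd1 (5.95 ± 0.474) differed by less than the SD of Nrip1, and N6amt1 (2.60 ± 0.178), Hlcs (2.58 ± 0.151) and Setd4 (2.41 ± 0.522; SD, n = 6) by less than the SD of Setd4. The variation between libraries beyond counting, as a biological coefficient of variation, was 7.49% to 10.5% for 7 members, 17.6% for Setd4 and 24.3% for Chaf1b.

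Of the 9 genes, 7 rose in Dp16 and 7 rose in Dp16_2xIFNRs against WT, and none fell. They were Hmgn1, Brwd1, Morc3, Hlcs, N6amt1, Zbtb21 and Nrip1 in both. Chaf1b and Setd4 lay above WT in both but were not called. A gene was called at an adjusted p below 0.05 over all 18717 genes tested (edgeR's quasi-likelihood test, Benjamini-Hochberg). Called in Dp16 were 0.748% of all tested genes (0.636% higher and 0.112% lower), and 59.1% of the segment genes were called higher. In Dp16_2xIFNRs 1.05% of all tested genes were called (0.737% higher and 0.31% lower), with 54.8% of the segment genes higher. The members' 7 of 9 stands beside a segment in which most tested genes were called. Levels are given as CPM, the count relative to the TMM-scaled library total.

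**Figure D1:**
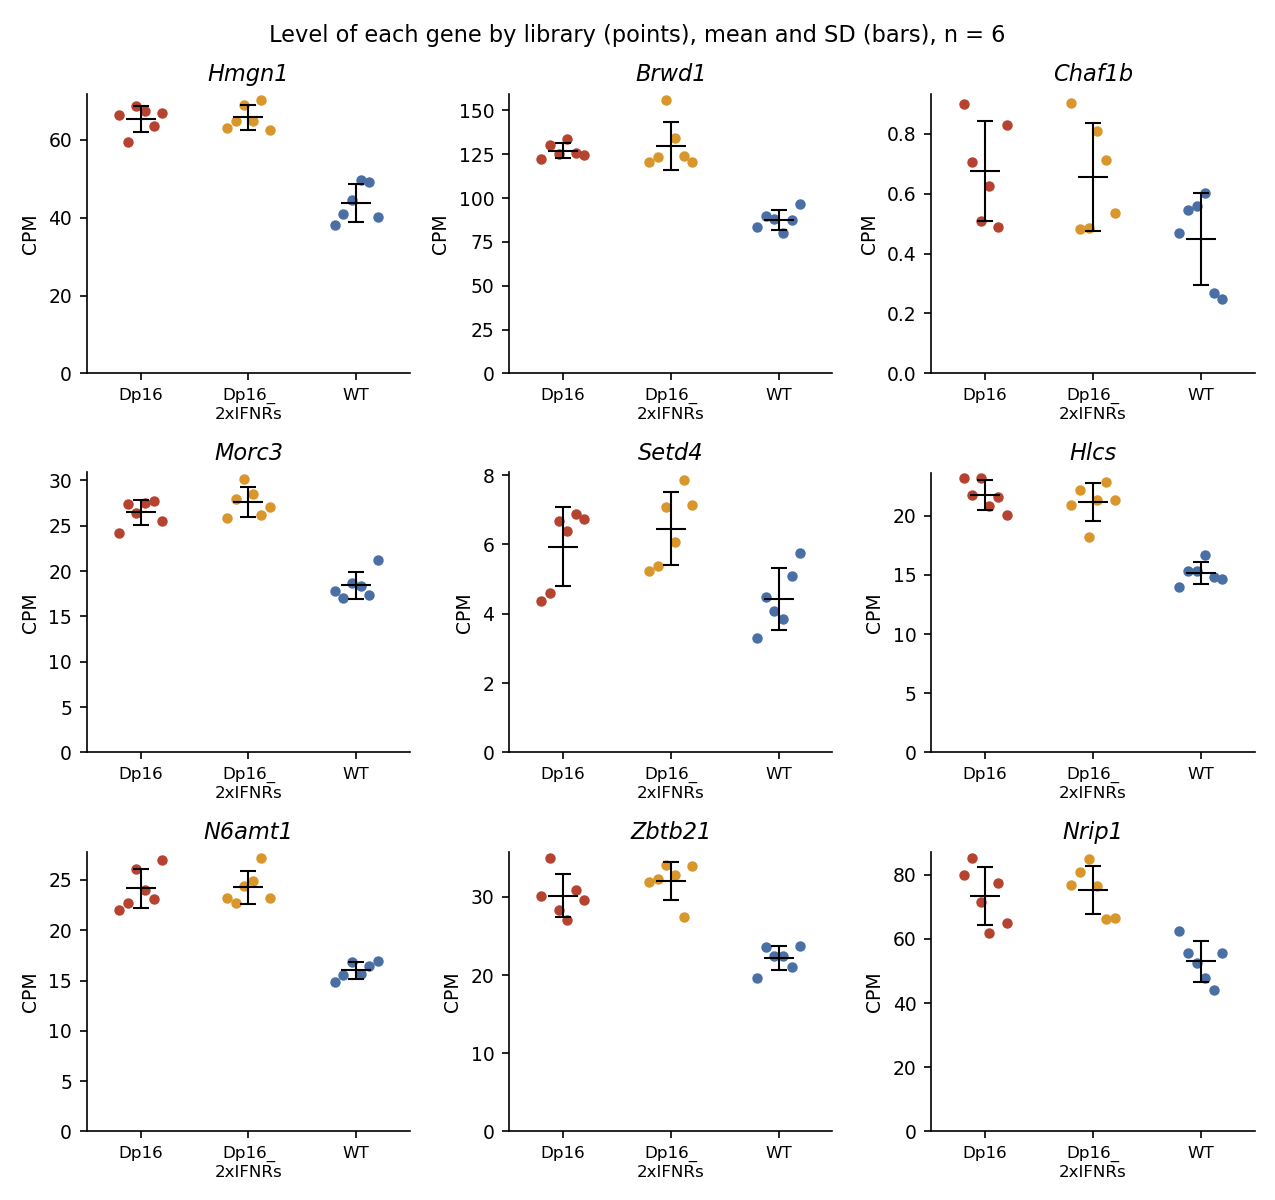
CPM of each of the 9 genes (vertical axis from 0) in every library, in Dp16, Dp16_2xIFNRs and WT; points are libraries and bars the mean and SD (n = 6). Dp16 libraries stand wholly above WT for 6 genes and Dp16_2xIFNRs libraries for 7, whereas Chaf1b and Setd4 overlap WT in both.

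The first genes bind or read the nucleosome. Hmgn1 attaches to nucleosomes and loosens chromatin in competition with linker histones. It had a lowest, median and highest value of 59.5, 66.6 and 68.7 CPM in Dp16, 62.5, 64.9 and 70.3 CPM in Dp16_2xIFNRs and 38.2, 42.7 and 49.7 CPM in WT. No library of either duplication genotype reached down to the WT range. The rise was 1.5-fold in Dp16 (95% interval 1.37 to 1.63, adjusted p = 3.00e-06) and 1.5-fold in Dp16_2xIFNRs (1.38 to 1.64, adjusted p = 2.83e-06). Brwd1 encodes a protein with bromodomains, which read acetylated histones. Its lowest, median and highest values were 122, 126 and 134 CPM in Dp16, 121, 124 and 156 CPM in Dp16_2xIFNRs and 80.1, 87.7 and 96.8 CPM in WT. The groups did not overlap with WT, and the value of 156 CPM was that of Dp16_2xIFNRs replicate 3 alone, the next being 134 CPM. Brwd1 rose 1.45-fold in Dp16 (1.33 to 1.58, adjusted p = 9.40e-06) and 1.48-fold in Dp16_2xIFNRs (1.36 to 1.62, adjusted p = 4.08e-06).

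Chaf1b and Morc3 belong to histone deposition and to nuclear bodies. Chaf1b encodes a subunit of CAF-1, the chaperone that places histones on newly copied DNA. It was counted with 29 to 45 reads per library in Dp16, 26 to 51 in Dp16_2xIFNRs and 12 to 29 in WT. The lowest, median and highest values were 0.490, 0.665 and 0.900 CPM in Dp16, 0.483, 0.6246 and 0.901 CPM in Dp16_2xIFNRs and 0.249, 0.507 and 0.601 CPM in WT. The groups overlapped: 4 WT libraries lay between 0.470 and 0.601 CPM and WT replicates 5 and 6 at 0.268 and 0.249 CPM. The difference from WT was 0.58 on the log2 scale in Dp16 (SE 0.253, 95% interval 0.05 to 1.11, adjusted p = 0.511) and 0.55 in Dp16_2xIFNRs (SE 0.252, 0.02 to 1.07, adjusted p = 0.416). As folds these intervals were 1.04 to 2.16 in Dp16 and 1.01 to 2.1 in Dp16_2xIFNRs. The summed markers of dividing cells were low in every group, at 0.967 to 1.44 RPKM in Dp16, 0.960 to 1.42 in Dp16_2xIFNRs and 1.19 to 1.61 in WT. Morc3, an ATPase that binds methylated histone H3 and gathers at PML nuclear bodies, had 24.2, 26.9 and 27.7 CPM as lowest, median and highest value in Dp16, 25.8, 27.5 and 30.2 CPM in Dp16_2xIFNRs and 17.03, 18.1 and 21.2 CPM in WT. It did not overlap with WT and rose 1.44-fold in Dp16 (1.32 to 1.56, adjusted p = 9.21e-06) and 1.5-fold in Dp16_2xIFNRs (1.38 to 1.63, adjusted p = 2.22e-06).

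Setd4, Hlcs and N6amt1 encode enzymes. Setd4 is a SET-domain methyltransferase. It had 4.38, 6.53 and 6.87 CPM as lowest, median and highest value in Dp16, 5.23, 6.57 and 7.85 CPM in Dp16_2xIFNRs and 3.31, 4.28 and 5.76 CPM in WT. The groups overlapped, through Dp16 replicates 1 and 2 (4.38 and 4.59 CPM), through Dp16_2xIFNRs replicates 1 and 2 (5.23 and 5.39 CPM) and through WT replicate 6 (5.76 CPM). The difference was 0.43 on the log2 scale in Dp16 (SE 0.149, 95% interval 0.11 to 0.74, adjusted p = 0.321) and 0.54 in Dp16_2xIFNRs (SE 0.148, 0.23 to 0.85, adjusted p = 0.0984). Without WT replicate 6 the call was made in Dp16_2xIFNRs (adjusted p = 0.0318). Setd4 also differed with the middle numbers of the sample descriptions, whose meaning the labels do not give. Libraries whose number starts with 9 were 3 in Dp16, 4 in Dp16_2xIFNRs and 4 in WT, and the others were 3, 2 and 2. For Setd4 the former averaged 5.21 CPM and the others 6.66 CPM in Dp16. The means were 5.94 and 7.49 CPM in Dp16_2xIFNRs and 3.93 and 5.42 CPM in WT. With that split as a covariate, added after seeing the values, Setd4 had an adjusted p of 0.17 in Dp16 and 0.00923 in Dp16_2xIFNRs. Chaf1b also differed with these numbers, mainly in WT: libraries whose number starts with 9 averaged 0.705 CPM and the others 0.647 CPM in Dp16, against 0.670 and 0.6246 CPM in Dp16_2xIFNRs and 0.544 and 0.258 CPM in WT. Its ratio to WT was 1.3 in Dp16 and 1.23 in Dp16_2xIFNRs among libraries whose number starts with 9. Among the others it was 2.51 in Dp16 and 2.42 in Dp16_2xIFNRs. That rests on 2 WT libraries, replicates 5 and 6, with 13 and 12 reads of Chaf1b. Nrip1 was higher in the libraries with a number starting with 9, at 78.9 against 68.1 CPM in Dp16, 79.8 against 66.3 CPM in Dp16_2xIFNRs and 54.6 against 49.8 CPM in WT. Of the remaining members, Hmgn1 and N6amt1 were lower in those libraries in all 3 genotypes, and Brwd1, Morc3, Hlcs and Zbtb21 differed in direction between genotypes. With the split as a covariate Chaf1b was still not called (adjusted p = 0.296 in Dp16 and 0.279 in Dp16_2xIFNRs, edgeR) and Nrip1 still was (0.000128 in Dp16 and 0.000105 in Dp16_2xIFNRs).

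Hlcs encodes holocarboxylase synthetase, which attaches biotin to carboxylases. Its lowest, median and highest values were 20.04, 21.7 and 23.2 CPM in Dp16, 18.2, 21.3 and 22.9 CPM in Dp16_2xIFNRs and 14.001, 15.1 and 16.7 CPM in WT. The ranges did not overlap with WT, and the rise was 1.44-fold in Dp16 (1.32 to 1.57, adjusted p = 1.18e-05) and 1.39-fold in Dp16_2xIFNRs (1.28 to 1.52, adjusted p = 4.34e-05). N6amt1 encodes the catalytic subunit of a methyltransferase that, with Trmt112, modifies the translation release factor encoded by Etf1. It had 22.01, 23.5 and 27.0 CPM in Dp16, 22.7, 23.8 and 27.2 CPM in Dp16_2xIFNRs and 14.8, 16.1 and 16.96 CPM in WT, again as lowest, median and highest. No library of either duplication genotype overlapped with WT, and N6amt1 rose 1.51-fold in Dp16 (1.38 to 1.64, adjusted p = 3.00e-06) and 1.51-fold in Dp16_2xIFNRs (1.39 to 1.65, adjusted p = 2.83e-06).

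Zbtb21 and Nrip1 repress transcription. Zbtb21 encodes a BTB zinc finger repressor that binds Zbtb14. It had 27.1, 29.9 and 35.05 CPM as lowest, median and highest value in Dp16, 27.5, 32.5 and 34.1 CPM in Dp16_2xIFNRs and 19.7, 22.4 and 23.8 CPM in WT. Neither genotype overlapped with WT, and Zbtb21 rose 1.36-fold in Dp16 (1.24 to 1.499, adjusted p = 0.000595) and 1.45-fold in Dp16_2xIFNRs (1.32 to 1.59, adjusted p = 5.10e-05). Nrip1 encodes a corepressor recruited by nuclear receptors when they bind hormone. It had 61.7, 74.5 and 85.2 CPM in Dp16, 66.3, 76.6 and 84.9 CPM in Dp16_2xIFNRs and 44.1, 54.1 and 62.4 CPM in WT. In Dp16 the lowest library, replicate 4 (61.7 CPM), lay below the highest WT library, replicate 1 (62.4 CPM), whereas Dp16_2xIFNRs did not overlap with WT. Nrip1 rose 1.39-fold in Dp16 (1.23 to 1.57, adjusted p = 0.00519) and 1.42-fold in Dp16_2xIFNRs (1.26 to 1.61, adjusted p = 0.00239). Its coefficient of variation within groups was 12.3% in Dp16, 10.1% in Dp16_2xIFNRs and 12.2% in WT, the highest of the 7 called members in Dp16 and in WT, whereas Brwd1 was higher in Dp16_2xIFNRs at 10.5%. In bulk cortex, a change in the share of cells that express a gene and a change in its RNA per cell cannot be told apart.

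Ranges did not overlap with WT for 6 of 9 members in Dp16, against 0.721% of all tested genes and 53.9% of the segment standing wholly above WT. In Dp16_2xIFNRs the number was 7 of 9, against 0.93% of all tested genes and 53.9% of the segment.

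The 2 duplication genotypes were then compared with each other, to ask whether receptor gene dosage bears on these 9 genes. None of the 9 was called in Dp16_2xIFNRs against Dp16 (edgeR), 0 had an unadjusted p below 0.05, and DESeq2 and limma-voom also called 0; of all tested genes, 0.0214% were called, namely the 4 receptor genes. No member stood wholly above Dp16 in Dp16_2xIFNRs, against 0.0321% of all tested genes. Log2 differences ran from -0.04 for Hlcs (95% interval -0.17 to 0.08) to 0.12 for Setd4 (-0.19 to 0.42), with a median of 0.03. For the 7 members called against WT, every interval lay within -0.17 and 0.23, with 0.23 the upper end for Zbtb21 (difference 0.09). For Chaf1b the interval was -0.54 to 0.47, so differences within that range are not excluded here.

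**Figure D2:**
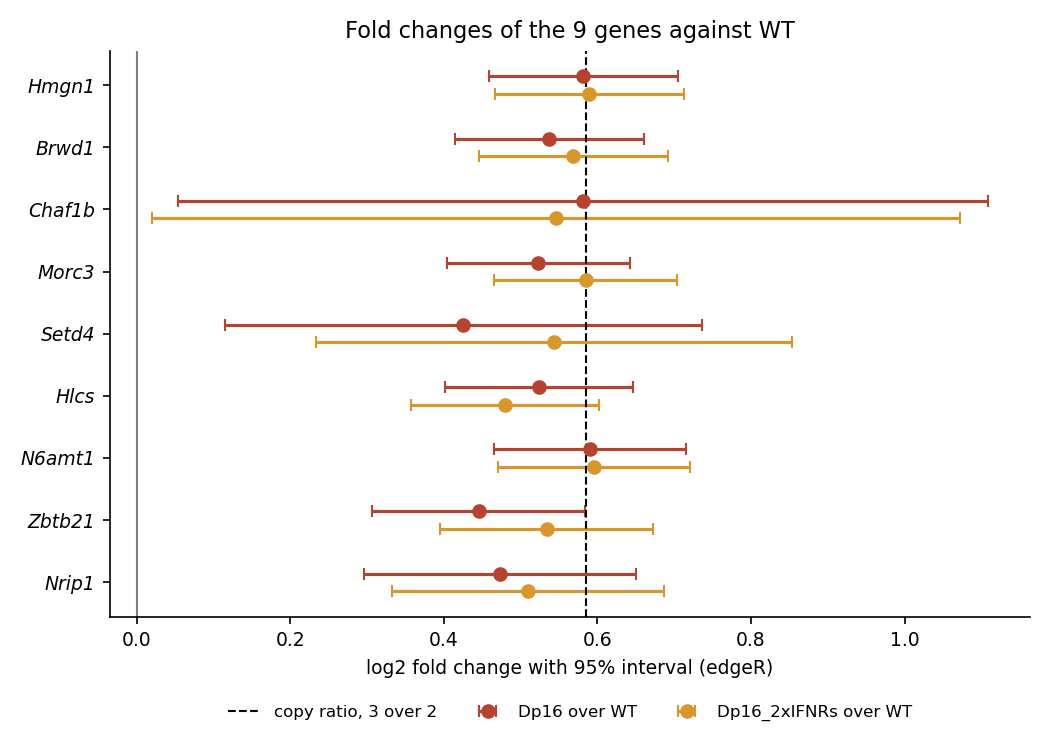
Log2 fold change of each gene against WT (horizontal axis) with its 95% interval from edgeR, Dp16 above Dp16_2xIFNRs; the dashed line is the copy ratio of 3 over 2. Only the Dp16 interval of Zbtb21 ends before that line, at 1.499-fold, and the intervals of Chaf1b and Setd4 are the widest.

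Set beside the copy ratio of 1.5, members' folds were close together. In Dp16 they ran from 1.34 (Setd4) to 1.51 (N6amt1) with a median of 1.44, and in Dp16_2xIFNRs from 1.39 (Hlcs) to 1.51 (N6amt1) with a median of 1.46. The interval held 1.5 for 8 of 9 members in Dp16 and for 9 of 9 in Dp16_2xIFNRs. The exception was Zbtb21 in Dp16, whose interval ended at 1.499. The other 102 tested segment genes outside the receptor cluster had a median fold of 1.47 in Dp16, with 57 called, and 1.48 in Dp16_2xIFNRs, with 56 called, and none was called lower. Their quartiles were 0.45 and 0.64 on the log2 scale in Dp16 and 0.41 and 0.65 in Dp16_2xIFNRs, and the members' log2 fold changes spanned 0.43 to 0.59 in Dp16 and 0.48 to 0.60 in Dp16_2xIFNRs. Over all tested genes the median log2 fold change was -0.0017 in Dp16 and 0.00043 in Dp16_2xIFNRs.

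**Figure D3:**
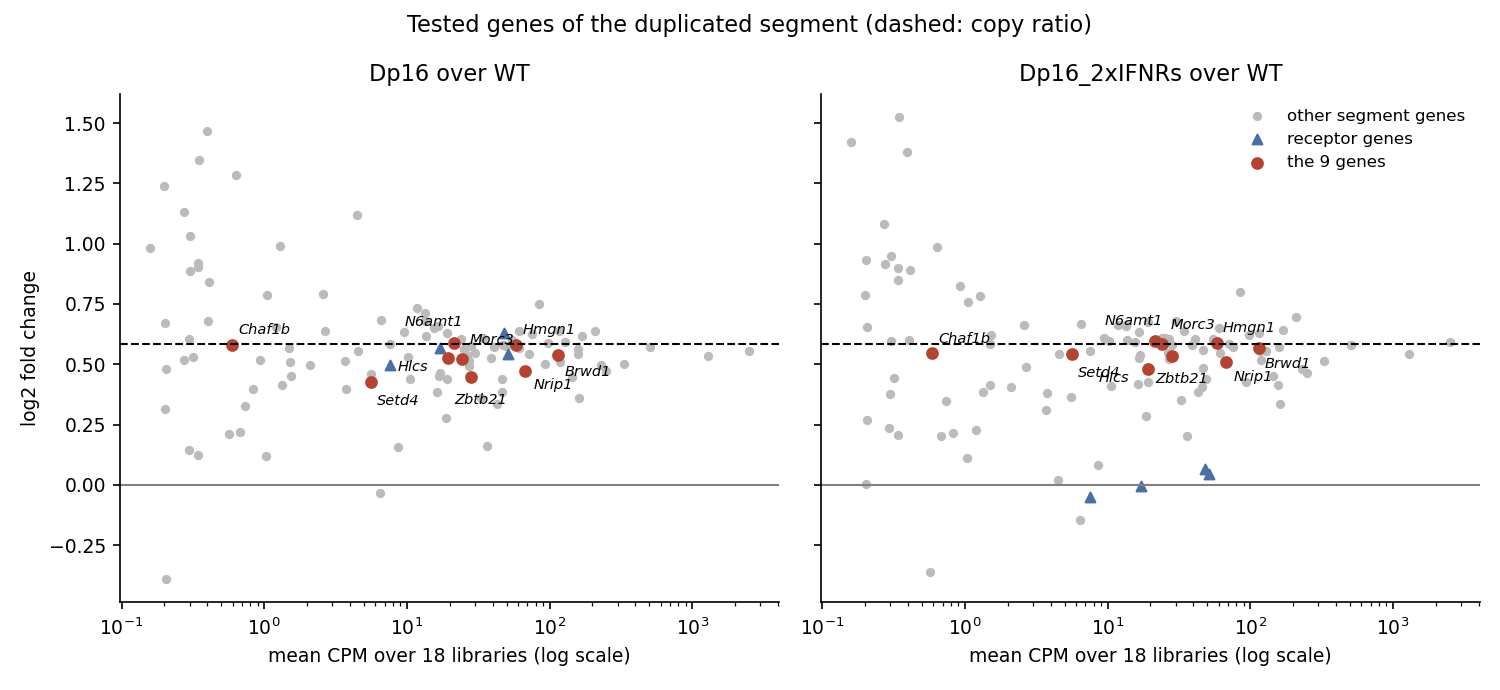
Log2 fold change against WT (vertical axis) by mean CPM over 18 libraries (log scale) for the 115 tested genes of the segment, in Dp16 and in Dp16_2xIFNRs; the 9 genes are red, the receptor genes blue triangles and the dashed line is the copy ratio. The 9 genes lie in a band from 0.43 to 0.60, while genes below 1 CPM scatter widely.

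Male and female animals were compared for each member, with the difference between the sexes in the genotype effect as an interaction term. No member was called for either genotype (edgeR), 0 had an unadjusted p below 0.05, and 0% of all tested genes were called for either interaction. The largest differences in Dp16 were those of Hmgn1, with a log2 fold change of 0.69 in males and 0.47 in females (difference 0.22, 95% interval -0.02 to 0.45), and of Hlcs, with 0.63 in males and 0.42 in females (difference 0.21, -0.02 to 0.43). In Dp16_2xIFNRs Hmgn1 had 0.66 in males and 0.52 in females, and Hlcs 0.46 in males and 0.50 in females. With 3 libraries per sex and genotype these intervals are wide. Sex itself, over all genotypes, was called for 0 members, against 0.0641% of all tested genes.

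Each member was also set against a related gene or genes outside the segment, as a ratio of RPKM within a library, which does not depend on scaling between libraries. The ratio to the partner rose for 8 of 9 members in Dp16 and for 9 of 9 in Dp16_2xIFNRs. Between the duplication genotypes it rose for 0 of 9. These were two-sided exact permutation tests, adjusted over 27 tests. Such counts cannot be set beside the level calls, whose adjustment over all tested genes is heavier. Chaf1b and Setd4, not called by level, had unadjusted p of 0.0324 and 0.00987 in Dp16 (edgeR). In Dp16_2xIFNRs their unadjusted p was 0.0428 and 0.00159 (edgeR). Ratios of other segment genes were not tested. The ratio of Hmgn1 to the summed family members Hmgn2, Hmgn3 and Hmgn5 was 0.615 ± 0.0292 in Dp16, 0.606 ± 0.0283 in Dp16_2xIFNRs and 0.416 ± 0.0273 in WT (SD, n = 6). The ranges of either genotype and WT did not overlap, and the exact permutation p was 0.00216, the smallest possible (adjusted p = 0.00417). The same p was found for Brwd1, Morc3, Hlcs, N6amt1, Zbtb21 and Nrip1 in both genotypes, Nrip1 to Ncor1 in Dp16 included, where the ratio separated groups whose CPM overlapped.

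Brwd1 had the largest shift of ratio among these 7, to its relatives Brwd3 and Phip: 2.03 ± 0.117 in Dp16, 1.95 ± 0.186 in Dp16_2xIFNRs and 1.22 ± 0.0583 in WT. That is 1.66-fold in Dp16 (95% interval 1.55 to 1.78) and 1.60-fold in Dp16_2xIFNRs (1.46 to 1.76). Of its denominator, Phip averaged 37.6 ± 2.78 CPM in Dp16, 40.4 ± 8.31 CPM in Dp16_2xIFNRs and 43.5 ± 2.94 CPM in WT, and was not called. The ratio of Chaf1b to Chaf1a, the largest subunit of CAF-1, was 0.336 ± 0.0862 in Dp16, 0.344 ± 0.0546 in Dp16_2xIFNRs and 0.216 ± 0.0628 in WT. It rose in Dp16 (exact permutation p = 0.0260, adjusted p = 0.0413) and in Dp16_2xIFNRs (exact permutation p = 0.00649, adjusted p = 0.0117), although ranges overlapped with WT. The Dp16 call for Chaf1b ended when any of WT replicates 1, 2, 5 and 6 or Dp16 replicates 1, 2, 4 and 6 was left out (adjusted p up to 0.0859, exact permutation tests).

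The ratio of Setd4 to its paralogue Setd3 was 0.0979 ± 0.0194 in Dp16, 0.105 ± 0.0164 in Dp16_2xIFNRs and 0.0723 ± 0.0154 in WT. It was not called in Dp16 (exact permutation p = 0.0390, adjusted p = 0.0584) and rose in Dp16_2xIFNRs (exact permutation p = 0.00866, adjusted p = 0.0146). Without WT replicate 6 the Dp16 adjusted p was 0.0378, without Dp16 replicate 1 it was 0.0206 and without Dp16 replicate 2 it was 0.0390. The remaining ratios lay between 1.44-fold and 1.56-fold in both genotypes. N6amt1 to Trmt112, its obligate partner subunit, was 0.281 ± 0.0293 in Dp16, 0.279 ± 0.0205 in Dp16_2xIFNRs and 0.184 ± 0.0212 in WT, while Trmt112 itself averaged 15.9 ± 0.966 CPM in Dp16, 16.04 ± 0.589 CPM in Dp16_2xIFNRs and 16.2 ± 1.15 CPM in WT.

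**Figure D4:**
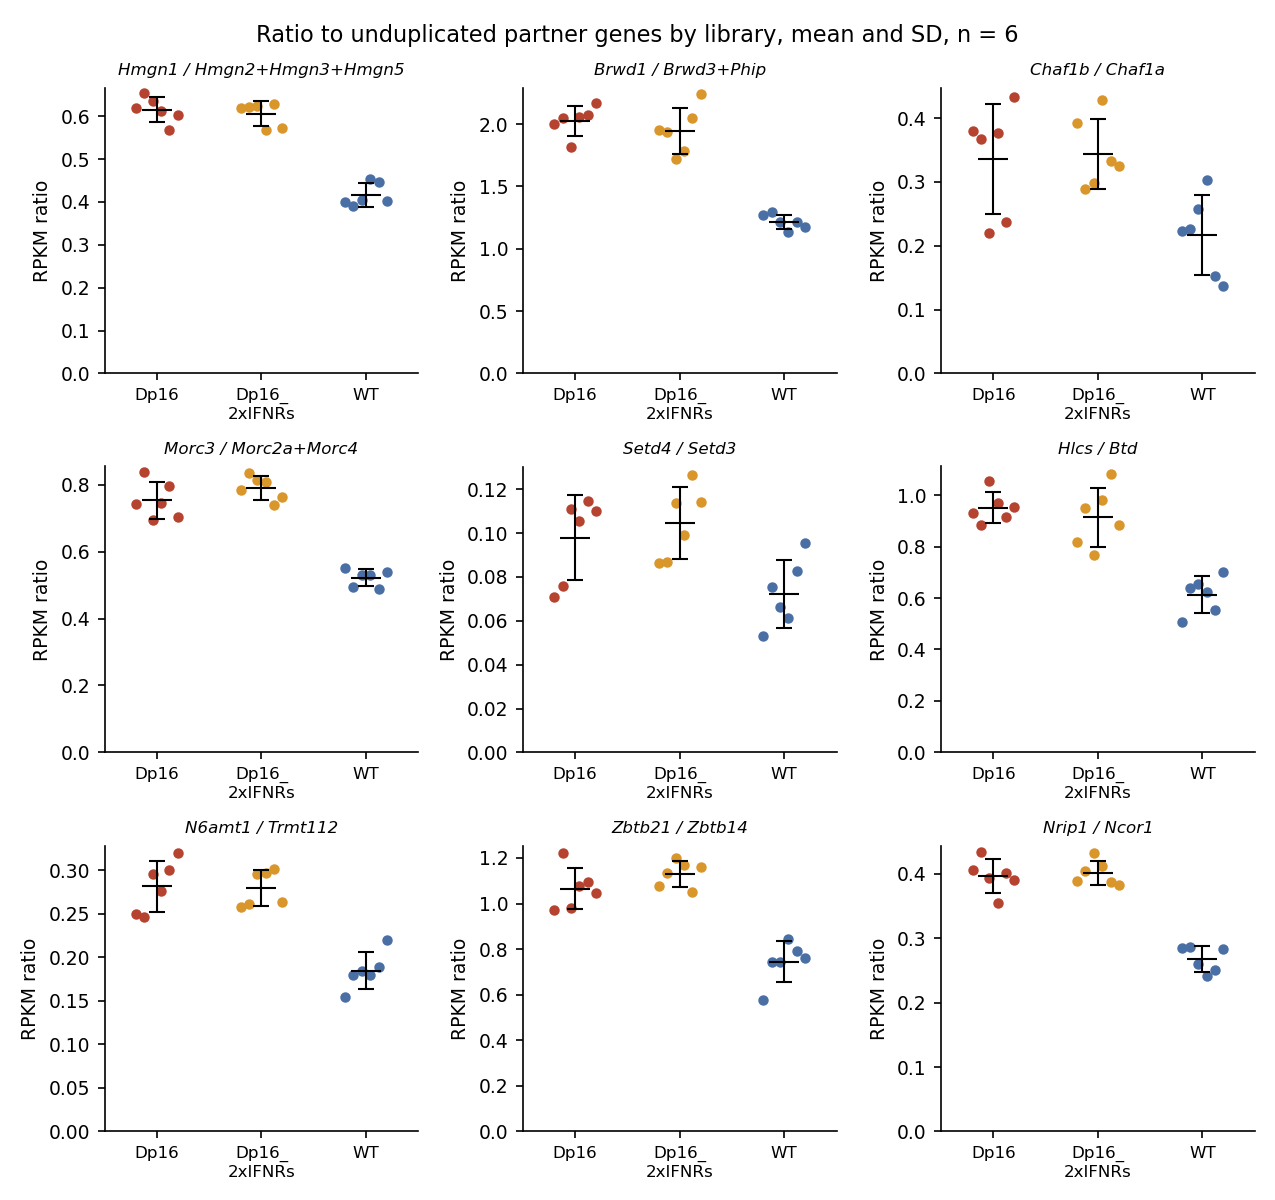
Ratio of each gene's RPKM to that of its named partner genes outside the segment (vertical axis from 0) by library, with mean and SD (n = 6), for Dp16, Dp16_2xIFNRs and WT. Both duplication genotypes stand wholly above WT for 7 of the 9 ratios, and Chaf1b to Chaf1a and Setd4 to Setd3 overlap.

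The genes around the members were examined in 9 lists outside the segment, 175 genes of which 171 were tested: H1f1, H1f3, H1f5 and Morc1 did not pass the filter. None of the 171 was called in Dp16 (edgeR, with 23 at an unadjusted p below 0.05, while DESeq2 called 3 and limma-voom 0). In all, 0.387% of the tested genes outside the segment were called in Dp16 and 0.715% in Dp16_2xIFNRs. In Dp16_2xIFNRs 2 were called higher, both linker histones, and none lower. Between the duplication genotypes 0 were called (edgeR, 2 at an unadjusted p below 0.05, with DESeq2 and limma-voom also at 0). Over the 171 genes the median log2 fold change was -0.04 in Dp16 and -0.03 in Dp16_2xIFNRs, beside -0.0017 in Dp16 and 0.00043 in Dp16_2xIFNRs over all tested genes. Above WT lay 48 of the 171 in Dp16, beside 9233 of the 18717 tested genes, and 60 in Dp16_2xIFNRs, beside 9392.

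**Figure D5:**
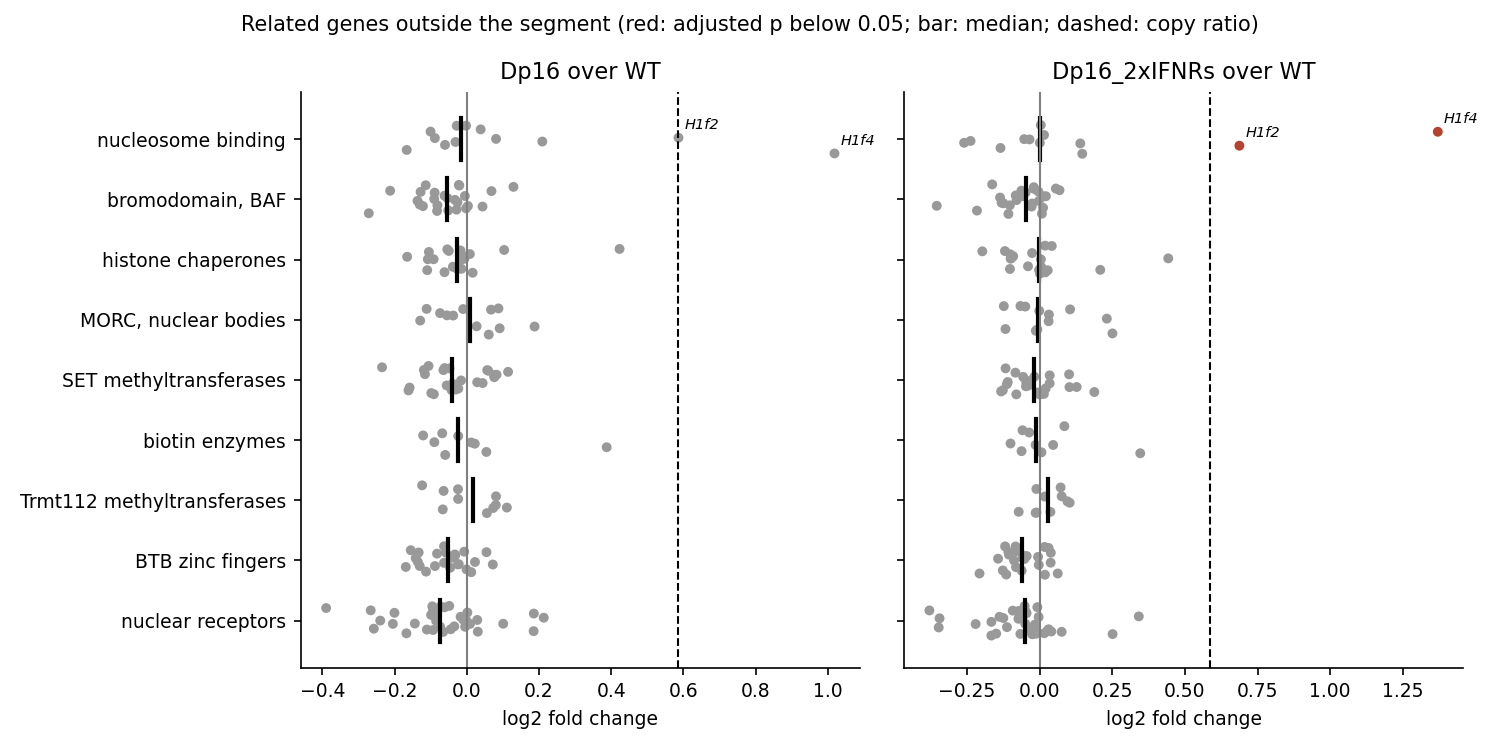
Log2 fold change against WT (horizontal axis) of the 171 tested list genes in the 9 lists, in Dp16 and in Dp16_2xIFNRs; black bars are list medians, the dashed line the copy ratio and red points the called genes. Nearly all points lie left of the dashed line, and H1f2 and H1f4 are the points furthest right in both panels.

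Linker histones close the nucleosome and compete with Hmgn1 for it. H1f4 had a lowest, median and highest value of 1.37, 3.50 and 3.94 CPM in Dp16, 1.93, 4.25 and 5.34 CPM in Dp16_2xIFNRs and 1.12, 1.44 and 2.26 CPM in WT. The groups overlapped with WT in both comparisons: the lowest Dp16 library lay below the WT median, and the lowest Dp16_2xIFNRs library below the highest WT library. H1f4 rose in Dp16_2xIFNRs (log2 fold change 1.37, SE 0.263, adjusted p = 0.0112), and its value in Dp16 was 1.02 (SE 0.265, 95% interval 0.46 to 1.58, adjusted p = 0.108). H1f2 had 14.1, 20.1 and 24.8 CPM in Dp16, 17.5, 21.1 and 24.9 CPM in Dp16_2xIFNRs and 8.99, 13.4 and 15.2 CPM in WT. It rose in Dp16_2xIFNRs, where it did not overlap with WT (log2 fold change 0.69, SE 0.136, adjusted p = 0.0154), and its value in Dp16 was 0.59 (SE 0.137, 0.30 to 0.87, adjusted p = 0.0576). In Dp16, H1f4 was called without Dp16 replicate 2 (adjusted p = 0.012) and without Dp16_2xIFNRs replicate 6 (adjusted p = 0.0377), and H1f2 without Dp16 replicate 2 (adjusted p = 0.0144) and without WT replicate 2 (adjusted p = 0.0399). With DESeq2 both were called in Dp16 (adjusted p = 0.00662 for H1f4 and 0.00203 for H1f2).

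Between the duplication genotypes, the difference was 0.35 for H1f4 (95% interval -0.17 to 0.88) and 0.10 for H1f2 (-0.18 to 0.38), neither called, so a difference between the genotypes in these genes was not shown. H1f2 and H1f4 are related linker histone genes, and any reads shared between them could have been split or dropped. How alike their sequences are was not examined. The libraries were made from poly(A) RNA, so RNA of these genes without a poly(A) tail would be missed. The summed dividing-cell markers given above were 0.960 to 1.42 RPKM in Dp16_2xIFNRs and 1.19 to 1.61 RPKM in WT. Rrm2 was the largest part of the sum (mean 0.694 RPKM in Dp16_2xIFNRs and 0.763 in WT), and Cdk1 had 7 to 24 reads per library. Whether cell division bears on the linker histone values was not tested. The other 10 tested genes of the list that holds H1f2 and H1f4 were not called in any comparison. Among them Hmgn2 averaged 47.1 ± 3.08 CPM in Dp16, 49.0 ± 2.78 CPM in Dp16_2xIFNRs and 44.5 ± 2.98 CPM in WT. Hmgn5 averaged 8.55 ± 0.651, 8.01 ± 0.501 and 9.58 ± 1.09 CPM in the same order. The linker histone gene H1f10 averaged 39.1 ± 1.29, 35.5 ± 3.79 and 42.0 ± 4.67 CPM, and H1f0, another, 79.9 ± 7.14, 81.9 ± 5.96 and 81.6 ± 6.13 CPM. Of the list's 12 tested genes, 5 lay above WT in Dp16 and 7 in Dp16_2xIFNRs. The list's median was -0.01 in Dp16 and 0.00 in Dp16_2xIFNRs.

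In the other 8 lists no gene was called by edgeR in any comparison, and the values given are those of their most abundant genes. At an unadjusted p below 0.05 each of the 8 held 0 to 6 genes in Dp16, 1 to 6 in Dp16_2xIFNRs and 0 or 1 between the duplication genotypes. DESeq2 called 3 genes over all 9 lists in Dp16 and 6 in Dp16_2xIFNRs, Smarcc2 among the 6 (adjusted p = 0.0218), and 0 between the duplication genotypes. Among 25 bromodomain and BAF remodelling genes around Brwd1, 4 lay above WT in Dp16 and 6 in Dp16_2xIFNRs, with medians of -0.05 in Dp16 and -0.05 in Dp16_2xIFNRs. Smarcc2, a core BAF subunit, averaged 423 ± 13.3 CPM in Dp16, 412 ± 14.8 CPM in Dp16_2xIFNRs and 450 ± 14.4 CPM in WT (log2 difference -0.09 in Dp16 with an adjusted p of 0.475, and -0.12 in Dp16_2xIFNRs with one of 0.139, edgeR). Among 19 histone chaperone genes around Chaf1b, 4 lay above WT in Dp16 and 9 in Dp16_2xIFNRs, and the nucleolar chaperone gene Npm1 averaged 106 ± 2.11 CPM in Dp16, 108 ± 3.36 CPM in Dp16_2xIFNRs and 105 ± 8.98 CPM in WT. Of 12 tested MORC and nuclear body genes, 6 lay above WT in Dp16 and 5 in Dp16_2xIFNRs.

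Of 25 SET methyltransferase genes, 8 lay above WT in Dp16 and 10 in Dp16_2xIFNRs. Ehmt2, which methylates histone H3 in silent chromatin, averaged 231 ± 10.7 CPM in Dp16, 221 ± 8.88 CPM in Dp16_2xIFNRs and 222 ± 12.8 CPM in WT. Of the 9 biotin genes that use or recycle what Hlcs attaches, 4 lay above WT in both. Pyruvate carboxylase, Pcx, averaged 95.8 ± 4.76 CPM in Dp16, 95.3 ± 3.20 CPM in Dp16_2xIFNRs and 94.95 ± 6.67 CPM in WT. Of 10 genes around N6amt1 and Trmt112, 5 lay above WT in Dp16 and 6 in Dp16_2xIFNRs, and the substrate gene Etf1 averaged 79.1 ± 2.55 CPM in Dp16, 80.3 ± 2.05 CPM in Dp16_2xIFNRs and 74.8 ± 3.72 CPM in WT (adjusted p = 0.528 in Dp16 and 0.238 in Dp16_2xIFNRs, edgeR).

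The lists around the repressors Zbtb21 and Nrip1 also lay mostly below WT. Of 24 BTB zinc finger genes, 4 lay above WT in Dp16 and 6 in Dp16_2xIFNRs, with medians of -0.05 in Dp16 and -0.06 in Dp16_2xIFNRs. Of 35 nuclear receptor and coregulator genes, 8 lay above WT in Dp16 and 7 in Dp16_2xIFNRs, with medians of -0.07 in Dp16 and -0.05 in Dp16_2xIFNRs. Thra, the thyroid hormone receptor alpha gene, averaged 780 ± 45.9 CPM in Dp16, 731 ± 61.4 CPM in Dp16_2xIFNRs and 821 ± 70.9 CPM in WT (log2 difference -0.07 in Dp16 with an adjusted p of 0.831, and -0.17 in Dp16_2xIFNRs with one of 0.272, edgeR). The corepressor gene Ctbp1 averaged 219 ± 9.38 CPM in Dp16, 214 ± 8.12 CPM in Dp16_2xIFNRs and 232 ± 15.3 CPM in WT (adjusted p = 0.659 in Dp16 and 0.320 in Dp16_2xIFNRs, edgeR). The second most abundant genes of these 8 lists, Smarcd1, Nap1l1, Sumo2, Setd7, Pccb, Gspt1, Zbtb18 and Zbtb7a, had log2 differences from WT of -0.06 (Gspt1) to 0.08 (Setd7) in Dp16 and of -0.08 (Smarcd1) to 0.13 (Setd7) in Dp16_2xIFNRs.

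Across the 18 libraries, the gene most like each member in log2 CPM was a segment gene for 8 of the 9 members. Pearson's r was 0.957 for Hmgn1 with Mrps6, 0.967 for Brwd1 and for Morc3 with Ltn1, and 0.969 for Setd4 with Paxbp1. It was 0.941 for Hlcs with Cfap298, 0.960 for N6amt1 with Grik1, 0.927 for Zbtb21 with Usp25 and 0.956 for Nrip1 with Synj1. Each r takes in differences between genotypes as well as between libraries, and the genes share the libraries and their depth. Of the 50 genes most like a member, 29 (Nrip1) to 46 (Brwd1) were segment genes for 7 members, against 5 for Setd4 and 4 for Chaf1b. Chaf1b was most like Gm31408 (r = 0.864), which is outside the segment. The next most like were genes outside the segment for 3 members, Abca8a for Hmgn1 (0.957), 4930447C04Rik for Setd4 (0.935) and Arhgap28 for Chaf1b (0.826), and segment genes for the other 6: each other for Brwd1 and Morc3 (0.964), Hspa13 for Hlcs (0.939), Pigp for N6amt1 (0.953), Dyrk1a for Zbtb21 (0.918) and Dscam for Nrip1 (0.951). Once the mean of each genotype and sex was taken out, the 36 pairs of members had a median r of 0.06 over the 18 libraries, with 19 pairs above 0. The highest were Setd4 with N6amt1 (0.76) and Brwd1 with Morc3 (0.67), and the lowest were Brwd1 with Hlcs (-0.62) and Hmgn1 with Nrip1 (-0.62). The split of middle numbers was not taken out. Setd4, N6amt1 and Hmgn1 were lower, and Nrip1 higher, in libraries whose number starts with 9 in every genotype. Whether that split bears on these correlations was not tested.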

How the data were processed

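Poly(A) RNA from cortex was made into strand-specific libraries and sequenced from both ends, per the labels' protocols. The submitters' processing notes name HTSeq 0.6.1, HISAT2 2.1.0, SAMtools 1.5, FastQC 0.11.5 and bcl2fastq, and the genome build GRCm38. How counting treated strand and shared reads is not given in the sources used. The authors deposited raw counts per gene, which were tested, and RPKM values, which equal the count over the library total and 1 length per gene for 31735 of 31735 genes examined (relative tolerance 1e-06). Positions came from GENCODE M21 of the same build, which placed 55144 of 55385 identifiers.

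Counts were filtered by group (filterByExpr, minimum count 10), scaled by TMM and tested with edgeR 4.0.16 in R 4.3.3 (quasi-likelihood, robust), with genotype and sex as terms and 18 libraries in 1 fit. The threshold was an adjusted p of 0.05 (Benjamini-Hochberg, 18717 genes). Library totals were 46346019 to 67281449, with a common biological coefficient of variation of 12.2% and 14 residual degrees of freedom. Partner ratios were tested by exact permutation (all arrangements of 12 libraries, smallest p 0.00216), with Benjamini-Hochberg adjustment over 27 tests. The scripts were tested on simulated data. Nothing says the samples came from separate animals beyond their labels as separate samples, so p-values measure the spread between these samples.

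The members, lists, tests and partner genes were chosen with earlier results of these data known. Named were all members, called list genes (up to 3 per direction), otherwise the 2 most abundant of a list, the partner genes, and the 2 genes most like a member. The values of 1 gene named by this rule are not reported here. Alternatives used RLE scaling, scaling from genes outside the segment, other filters, DESeq2 1.42.0, limma 3.58.1 on voom or log2(RPKM + 0.1) or log2(RPKM + 0.01) values, other covariates or blocks, and fewer libraries.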

Additional observations from a re-analysis of the deposited data

Results flagged for a closer look

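Zbtb21 in Dp16_2xIFNRs replicate 5 stood apart from the rest of its group, at 27.5 CPM against a nearest value of 31.9 CPM. The ratio of Zbtb21 to Zbtb14 in WT replicate 1 stood apart as well, at 0.577 against a nearest value of 0.744. Both gaps were large relative to the whole range of their group of 6. They are 2 of 54 groups of 6 examined, and chance alone isolates about 1 sample in 20 groups.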

How the results depend on the processing

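No called result reversed its direction under the alternatives run. The number of members called was 7 or 8 in each comparison with WT and 0 between the duplication genotypes and for the interaction with sex, under every alternative run. The eighth was Setd4, which in Dp16_2xIFNRs passed with DESeq2 (adjusted p = 0.022) and with age added (0.0367). It also passed there with the shared middle number of the sample description as a random block (limma-voom, 0.0349). With the split of middle numbers, chosen after seeing the data, it passed as well (0.00923). Chaf1b was called under none of 32 alternatives (adjusted p 0.296 to 0.725 in Dp16 and 0.222 to 0.610 in Dp16_2xIFNRs), and was not tested where at least 1 CPM in 6 libraries was required; its low counts limit what can be seen.

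The number of list genes called in Dp16, 0 in the report, was 1 with the filter of at least 1 CPM and 3 with DESeq2. It was 1 with limma on log2(RPKM + 0.1), 1 on log2(RPKM + 0.01), 1 without the sex term and 1 with age added. With the shared middle number of the sample description as a random block it was 1, and with the split of middle numbers it was 2. In Dp16_2xIFNRs, where it was 2, it was 1 with no filter, through H1f2 (adjusted p = 0.0525), and 6 with DESeq2. Smarcc2 then had an adjusted p of 0.0218. Leaving out 1 library gave 0 to 2 list genes in Dp16 (2 without Dp16 replicate 2, 1 without WT replicate 2 or without Dp16_2xIFNRs replicate 6) and 2 to 6 in Dp16_2xIFNRs (6 without WT replicate 6, 4 without Dp16_2xIFNRs replicate 1). Partner ratios passing numbered 16 to 18 against 17; without Dp16 replicate 2 the ratio of Zbtb21 also passed between the duplication genotypes (exact permutation, adjusted p = 0.0390). The cause of these changes was not tested.

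The labels number the samples within each genotype, and whether equal replicate numbers pair the samples was not settled. At replicates 5 and 6 the Dp16 sample is of the opposite sex to the WT and Dp16_2xIFNRs samples of that number. The middle numbers of the sample descriptions also often differ within a replicate number. Of 18 pairs of equal replicate number, 9 correlated above 0.1 (r from -0.17 to 0.26 over 2000 genes). Their median r was 0.0975, against a median of -0.0287 for unequal numbers. The middle numbers of the sample descriptions were not examined in this way. With the replicate block, list genes called were 2 in Dp16 and 6 in Dp16_2xIFNRs. Members called were 8 in each, since Setd4 passed (adjusted p = 0.0432 in Dp16 and 0.00498 in Dp16_2xIFNRs, edgeR). Over all tested genes the block gave 168 calls in Dp16 and 304 in Dp16_2xIFNRs, beside 140 and 196 without it. By the paired sign-flip test 17 ratios passed, the ratio of Chaf1b in Dp16 no longer (exact, adjusted p = 0.0938) and that of Setd4 in Dp16 then (0.0496). The unadjusted sign-flip p of Setd4 was 0.0312, the smallest this test can give with 6 pairs. Whether a ratio passes then depends on how many ratios share that smallest value, so a pass by this test carries little weight.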
